A study of Mus musculus with 9 samples.

Results

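The transcripts described here are those of the 3 main HMGB proteins (Hmgb1, Hmgb2 and Hmgb3), of the receptors of extracellular HMGB1 (Ager, Tlr2 and Tlr4) and of the chemokine CXCL12 with its receptor CXCR4 (Cxcl12 and Cxcr4), in mouse muscle after injury. The members were taken by gene symbol, and the 8 symbols matched 8 of the 54532 genes in the deposited table. The other members were chosen for their known roles around HMGB1, and Hmgb1 was chosen by its measured FPKM across the 3 groups, so its values are given as a description with no test. Of the 8 members, 7 passed the filter on low values, and Ager did not.

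The study asks how deletion of P311 (gene symbol Nrep) bears on regeneration of aged skeletal muscle. Polyadenylated RNA from injured tibialis anterior, a muscle of the lower hind limb, was sequenced in 9 libraries. There were 3 libraries each from old P311-/- mice, whose age in months the labels do not give, from old wild-type (WT) mice of 24 months and from young WT mice of 4 to 6 months. The sources used here do not give the kind of injury, the time after it or the way the allele was made, and the labels do not say whether replicates are separate animals, so p-values measure the spread between libraries, which may be technical. Levels are FPKM, reads scaled by gene length and by library size as set by the authors.

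HMGB1 is an abundant nuclear protein that bends DNA and loosens its contact with histones. Damaged or activated cells release it, and outside the cell it acts as an alarm signal whose effect depends on the redox state of its cysteines. The reduced protein forms a complex with CXCL12 that acts through CXCR4 and draws cells to the injured site, whereas the disulphide form acts through TLR4 and drives inflammatory signalling. RAGE, the product of Ager, is the other classical receptor, and TLR2 also takes part in the response to HMGB1. In injured mouse muscle, released HMGB1 is known to aid regeneration.

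The Hmgb1 gene (ENSMUSG00000066551, chr5:149046702-149184489, minus strand, GRCm38) has many processed copies in the mouse genome, and its reading frame resembles those of Hmgb2 and Hmgb3 much less than those of the copies. The first 90 coding bases are shown for Hmgb1, for the 5 copies with the most reads in these libraries and for both paralogues, to set the near-identity of the copies beside the distance of the paralogues. Sequences are from GENCODE M21 transcripts, 5′ to 3′ on the coding strand, and capitals mark bases that differ from Hmgb1.
Hmgb1: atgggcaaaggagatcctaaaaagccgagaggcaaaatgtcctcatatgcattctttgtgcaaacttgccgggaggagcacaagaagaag
Gm5518: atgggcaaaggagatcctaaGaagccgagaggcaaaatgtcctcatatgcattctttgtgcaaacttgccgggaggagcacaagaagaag
Gm5527: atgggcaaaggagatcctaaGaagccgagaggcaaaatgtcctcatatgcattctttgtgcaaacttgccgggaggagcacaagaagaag
Hmgb1-ps8: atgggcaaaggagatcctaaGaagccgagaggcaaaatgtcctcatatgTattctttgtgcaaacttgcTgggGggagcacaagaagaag
Hmgb1-ps2: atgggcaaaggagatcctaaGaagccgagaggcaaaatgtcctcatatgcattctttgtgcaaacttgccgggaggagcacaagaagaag
Gm15387: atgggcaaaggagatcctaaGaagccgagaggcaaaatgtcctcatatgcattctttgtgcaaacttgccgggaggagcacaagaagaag
Hmgb2: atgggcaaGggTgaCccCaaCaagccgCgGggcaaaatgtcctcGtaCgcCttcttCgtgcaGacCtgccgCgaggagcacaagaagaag
Hmgb3: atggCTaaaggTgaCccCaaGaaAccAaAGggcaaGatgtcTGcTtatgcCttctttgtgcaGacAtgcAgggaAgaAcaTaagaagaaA
In this window 4 of the copies carried 1 difference, the substitution A21G counted from the first base of the start codon, and Hmgb1-ps8 carried 4, among them A21G. Hmgb2 carried 14 differences and Hmgb3 carried 22. Over the aligned coding sequence, Gm15387 differed from Hmgb1 at 1 of 648 bases and had an identical run of 627 bases. Gm5518 differed at 5 of 645 bases, Hmgb1-ps2 at 3 of 636, Gm5527 at 7 of 642 and Hmgb1-ps8 at 22 of 623. Inserted and deleted bases were left out of these counts. By blastn, which counts gaps, identity was 99.8% for Gm15387, 99.2% for Gm5518, 98.6% for Hmgb1-ps2, 98.4% for Gm5527 and 95.8% for Hmgb1-ps8. Hmgb2 was 78.5% identical to Hmgb1 over aligned bases, with no identical run longer than 20 bases, and Hmgb3 was 76.2% identical, with a longest run of 27 bases.

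Recovered reads per library ranged from 14222204 to 31910890. Nrep, the deleted gene, was at 14.8, 6.37 and 9.72 FPKM in the P311-/- libraries, against 71.4 to 83.1 FPKM in old WT and 63.9 to 86.3 FPKM in young WT, and the part of the gene removed is not stated in the labels. P311-/- replicate 1 had the lowest estimated quality weight of the 9 libraries, 0.27, against 0.69 in replicate 2 and 2.54 in replicate 3. Without it the number of genes called between P311-/- and old WT was 1875 in place of 10. This was the most of any fit that left out 1 library, and it leaves only replicates 2 and 3 in the P311-/- group. Calls that differ without replicate 1 are therefore given beside the results on the P311-/- group. Of all 14233 genes tested, the fit without it called 13.2% between P311-/- and old WT. It called 12.3% between old and young WT and 19.6% between P311-/- and young WT. With all 9 libraries, 16.1%, 26.3% and 21.4% had an unadjusted p under 0.05 by limma in the same order. Counts within a list are to be read beside these shares. Markers of skeletal muscle fibres summed to at least 50280 FPKM in every library, and none of the 12 was at 0 in all of them.

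Hmgb1 was lowest in old P311-/- muscle, highest in old WT muscle and between these in young WT muscle. It was at 5.84, 6.23 and 5.72 FPKM in P311-/- replicates 1 to 3, at 15.7, 19.6 and 15.5 FPKM in old WT, and at 10.8, 9.43 and 9.39 FPKM in young WT. No library of any group fell within the range of another group, and P311-/- replicate 1 sat inside the narrow range of its group. The means were 5.93 ± 0.264 FPKM in P311-/-, 16.9 ± 2.32 FPKM in old WT and 9.89 ± 0.828 FPKM in young WT (SD, n = 3 each). The P311-/- mean was 35.1% of the old WT mean and 60.0% of the young WT mean, and the old WT mean was 1.71 times the young one. On the scale of log2(FPKM + 0.1), the difference was -1.49 for P311-/- minus old WT, 0.76 for old minus young WT and -0.73 for P311-/- minus young WT. Groups without overlap were common among all 14233 genes tested, with 18% between P311-/- and old WT, 37.1% between old and young WT and 23.5% between P311-/- and young WT. These values rest on 559 to 868 reads per library in P311-/-, 1630 to 1877 in old WT and 792 to 932 in young WT.

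**Figure D1:**
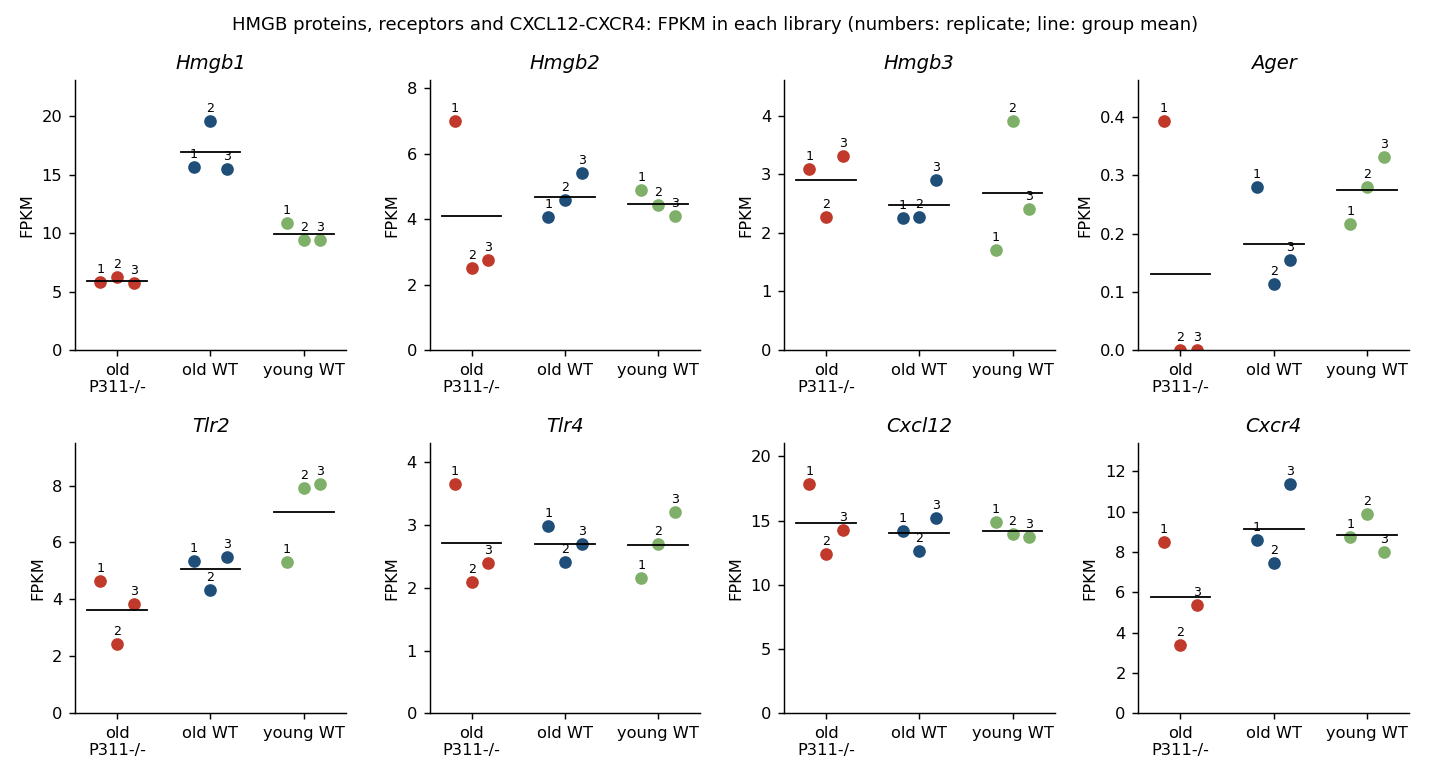
FPKM of the 8 members in each library, with old P311-/- on the left, old WT in the middle and young WT on the right, numbers marking replicates and lines marking group means. The 3 Hmgb1 groups do not overlap (P311-/- mean 5.93, old WT 16.9, young WT 9.89 FPKM). P311-/- replicate 1 lies above replicates 2 and 3 for Hmgb2, Ager, Tlr2, Tlr4, Cxcl12 and Cxcr4, and not for Hmgb1 and Hmgb3.

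The summed reads of the Hmgb1 copies overlapped between P311-/- and old WT, where the gene itself did not. In all, 93 pseudogenes matched the Hmgb1 coding sequence at 90% identity or more over 80% of its length or more, and 37 of them had reads. Together they held 55.0, 65.2 and 56.5 reads per 1000000 of the authors' library size (RPM) in P311-/-, 53.7, 55.8 and 60.9 in old WT, and 51.8, 54.7 and 41.7 in young WT. The Hmgb1 row itself had 28.7 to 31.3 RPM in P311-/-, 77.7 to 98.4 in old WT and 47.2 to 54.5 in young WT.

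The copies therefore made up a different share of the combined reads in each group: 65.2% to 67.6% in P311-/-, 36.2% to 43.9% in old WT and 47.0% to 53.6% in young WT. With the copies added, the sum averaged 88.7 ± 6.74 RPM in P311-/-, 142 ± 11.2 in old WT and 99.1 ± 9.05 in young WT (SD, n = 3 each). The combined P311-/- mean was 62.6% of the old WT mean, against 35.1% for the Hmgb1 row alone, and 89.5% of the young WT mean, against 60.0% alone. The combined old WT mean was 143% of the young WT mean, against 171% alone. The order of the 3 means stayed the same, but the P311-/- and young WT libraries then overlapped, at 84.4, 96.4 and 85.2 RPM in P311-/- and 106, 102 and 88.9 in young WT. The coding sequence is 648 bases, 12.9% of the gene length behind the FPKM, so most of the length counted for Hmgb1 lies outside the stretch that these copies were matched to. How reads that match several loci were assigned is not stated in the labels, and whether reads of Hmgb1 were counted on the copies was not tested.

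**Figure D2:**
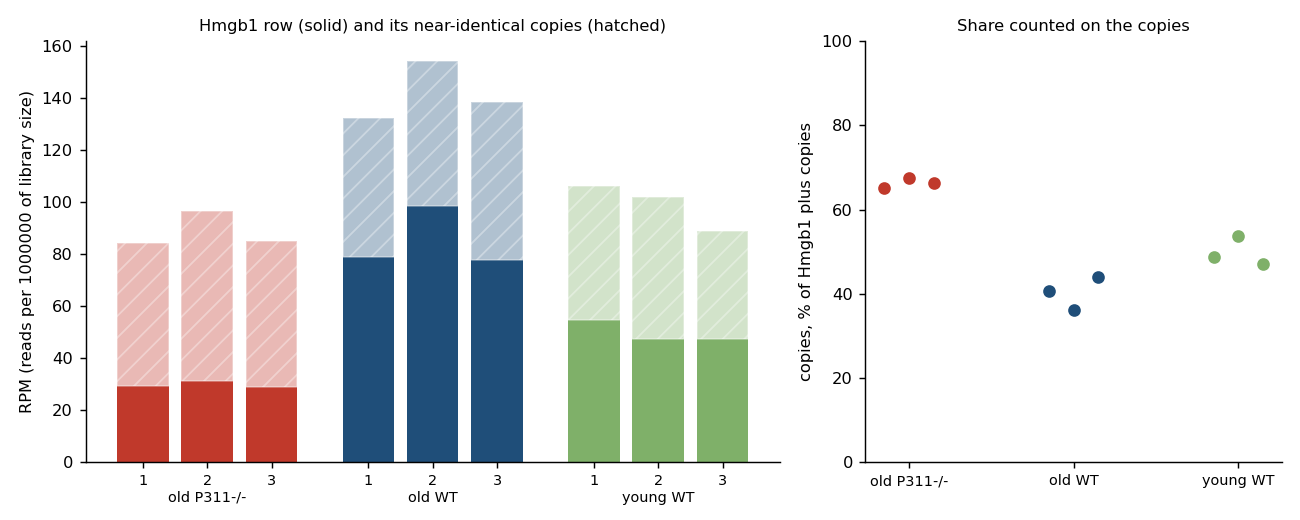
Left, RPM (reads per 1000000 of the authors' library size) on the Hmgb1 row (solid) and on its 93 near-identical copies (hatched) in each of the 9 libraries. Right, the copies' share of both in percent. The solid part differs between groups (P311-/- 28.7 to 31.3, old WT 77.7 to 98.4, young WT 47.2 to 54.5), while the hatched part is 41.7 to 65.2 in all 9 libraries, and the copies' share is 65.2% to 67.6% in P311-/-, 36.2% to 43.9% in old WT and 47.0% to 53.6% in young WT.

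Of the 93 copies, 9 passed the filter, and limma and voom called none of them in any comparison with all 9 libraries. At an unadjusted p under 0.05 there were 2 lower between P311-/- and old WT, 2 higher between old and young WT and 3 higher between P311-/- and young WT. The shares over all genes tested were 16.1%, 26.3% and 21.4%. Gm5518 on chromosome 19 had the most reads, with 33.6, 38.0 and 34.3 FPKM in P311-/-, 30.7, 36.8 and 32.3 FPKM in old WT, and 27.6, 38.7 and 24.6 FPKM in young WT. Its groups overlapped throughout (P311-/- over old WT log2 fold change 0.09, SE 0.17, adjusted p = 0.819 by limma). Hmgb1-ps8 on chromosome 10 was at 12.9, 24.8 and 18.7 FPKM in P311-/-, 12.1, 11.6 and 15.1 FPKM in old WT, and 11.7, 12.2 and 8.81 FPKM in young WT. It had a log2 fold change of 0.49 between P311-/- and old WT (SE 0.23, adjusted p = 0.328 by limma), the opposite sign to Hmgb1, and without P311-/- replicate 1 it was called higher (log2 fold change 0.74, adjusted p = 0.0373), as it was against young WT (0.99, adjusted p = 0.0103). Gm5527 on chromosome 1 had the same sign as Hmgb1, at 12.5, 13.3 and 10.5 FPKM in P311-/- and 19.0, 15.1 and 18.9 FPKM in old WT (log2 fold change -0.54, SE 0.19, adjusted p = 0.266 by limma). Copies of the paralogues were few: 4 of 8 Hmgb2 copies and 2 of 10 Hmgb3 copies had reads, at no more than 2.94 and 1.03 RPM.

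No tested gene near Hmgb1 on chromosome 5 was called with all 9 libraries. Of 48 other genes within 500 kb, 16 passed the filter, and neither limma nor voom called any in the 3 comparisons. At an unadjusted p under 0.05 there were 0 between P311-/- and old WT, 1 higher and 2 lower between old and young WT, and 1 higher and 4 lower between P311-/- and young WT. Over all genes tested the shares were 16.1%, 26.3% and 21.4%. The fit without P311-/- replicate 1 made calls among them. Over all genes tested it called 13.2% between P311-/- and old WT, 19.6% between P311-/- and young WT and 12.3% between old and young WT. Ubl3 was higher in P311-/- than in old WT (log2 fold change 0.45, adjusted p = 0.0465 by limma) and B3glct was lower (-0.76, adjusted p = 0.0348). Over young WT, Ubl3 (0.62, adjusted p = 0.0116) and Gm15408 (0.89, adjusted p = 0.0451) were higher in P311-/-. Medag (-0.78, adjusted p = 0.0292) and B3glct (-1.05, adjusted p = 0.00844) were lower. Hsph1 was lower in old than in young WT (-0.49, adjusted p = 0.0445). The nearest, Uspl1, a SUMO protease gene on the opposite strand, overlaps the Hmgb1 start and was at 2.99, 3.63 and 3.58 FPKM in P311-/-, 3.47, 3.91 and 2.92 FPKM in old WT, and 2.56, 3.20 and 3.68 FPKM in young WT. Its log2 fold change between P311-/- and old WT was -0.01 (SE 0.17, adjusted p = 0.984 by limma). The other 6 rows that overlap Hmgb1 had at most 18 reads in a library, and no row overlaps any of the other 7 members. Strand use in counting is not stated in the labels, so reads in the overlap with Uspl1 cannot be told apart.

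**Figure D3:**
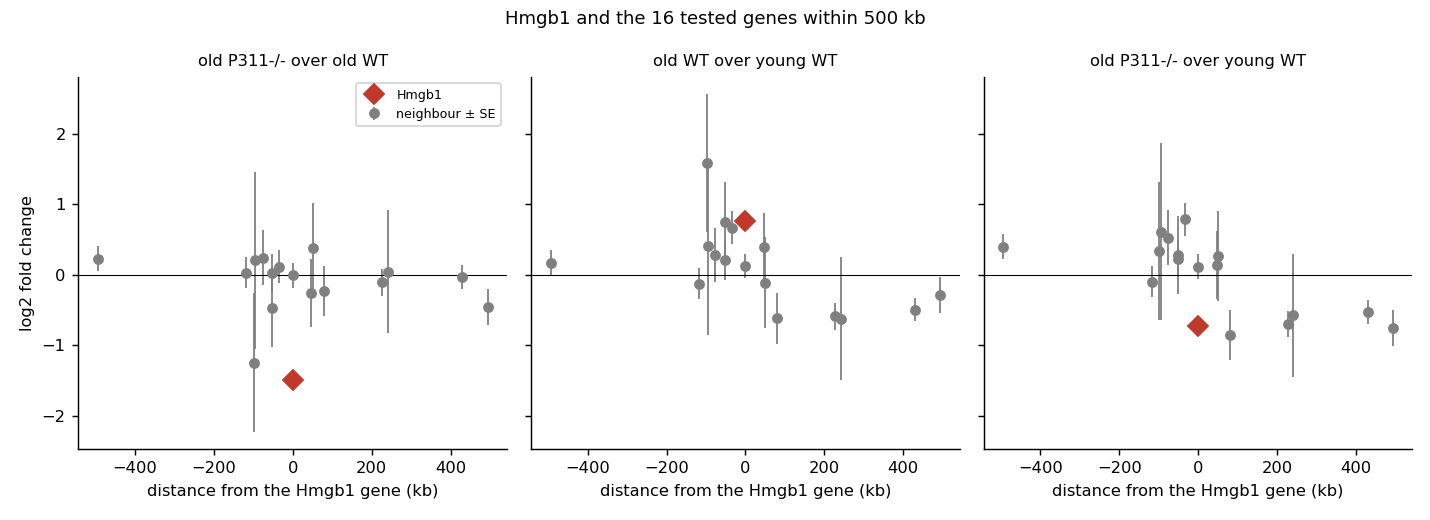
Log2 fold changes of Hmgb1 (diamond, no test) and of the 16 tested genes within 500 kb (grey, ± SE), against their distance in kb from the Hmgb1 gene, negative towards lower coordinates, in the 3 comparisons. Hmgb1 lies at -1.49 for P311-/- over old WT, 0.76 for old over young WT and -0.73 for P311-/- over young WT, and no neighbour was called with all 9 libraries.

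Hmgb2, a paralogue of Hmgb1 that is abundant in dividing cells, was at 7.01, 2.50 and 2.77 FPKM in P311-/-, 4.08, 4.58 and 5.42 FPKM in old WT, and 4.90, 4.44 and 4.09 FPKM in young WT. P311-/- replicate 1 was the highest of the 9 libraries and replicates 2 and 3 were the lowest 2. With all libraries the log2 fold change between P311-/- and old WT was -0.34 (SE 0.33, 95% confidence interval -1.08 to 0.39, adjusted p = 0.614 by limma), and between old and young WT it was 0.06 (adjusted p = 0.926). Without P311-/- replicate 1, Hmgb2 was called lower against old WT (log2 fold change -0.80, SE 0.15, adjusted p = 0.0155) and against young WT (-0.74, adjusted p = 0.0131). Across the P311-/- libraries, Hmgb2 was highest in replicate 1, as was the summed FPKM of 20 proliferation genes, which was 122, 70.04 and 77.2 in P311-/-, 105, 103 and 119 in old WT, and 115, 122 and 112 in young WT. In young WT the library with the highest sum did not have the highest Hmgb2. Of the 18 proliferation genes tested, none was called between P311-/- and old WT (1 lower at an unadjusted p under 0.05, beside 16.1% of all genes). Without P311-/- replicate 1, 6 of them were called lower, beside 13.2% of all genes tested called in that fit. The part of dividing cells in the Hmgb2 difference was not tested. In bulk RNA, fewer cells of a type and less RNA per cell cannot be told apart.

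Hmgb3, the paralogue best known from blood stem cells and embryos, was at 3.09, 2.28 and 3.32 FPKM in P311-/-, 2.25, 2.27 and 2.91 FPKM in old WT, and 1.71, 3.91 and 2.40 FPKM in young WT. All 3 groups overlapped, and the interval of the log2 difference between P311-/- and old WT ran from -0.40 to 0.83. Among the 3 HMGB transcripts, Hmgb1 made up 36.7%, 56.6% and 48.5% of the summed FPKM in P311-/-, 71.2%, 74.1% and 65.0% in old WT, and 62.1%, 53.0% and 59.1% in young WT. In P311-/- replicate 1 Hmgb2 was above Hmgb1, at 43.9% of the sum, which was not so in any other library.

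Of the 6 members that were tested, limma called 0 in each comparison, where it called 0.0703% of all genes tested between P311-/- and old WT, 5.4% between old and young WT and 0.4% between P311-/- and young WT. At an unadjusted p under 0.05 there were 1, 0 and 2 members in these comparisons, beside 16.1%, 26.3% and 21.4% of all genes tested, and voom with limma on recovered reads also called 0 in each. Without P311-/- replicate 1 the members called were Hmgb2 and Cxcr4 between P311-/- and old WT, and Hmgb2, Cxcr4 and Tlr2 between P311-/- and young WT, all lower in P311-/-. These were 2 and 3 of 6 members, beside 13.2% and 19.6% of all genes tested in the same fit, and between old and young WT it called none of the 6 and 12.3% of all genes. The median log2 fold change of the 6 members between P311-/- and old WT was -0.19 with all libraries, beside 0.00 over all genes tested.

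**Figure D4:**
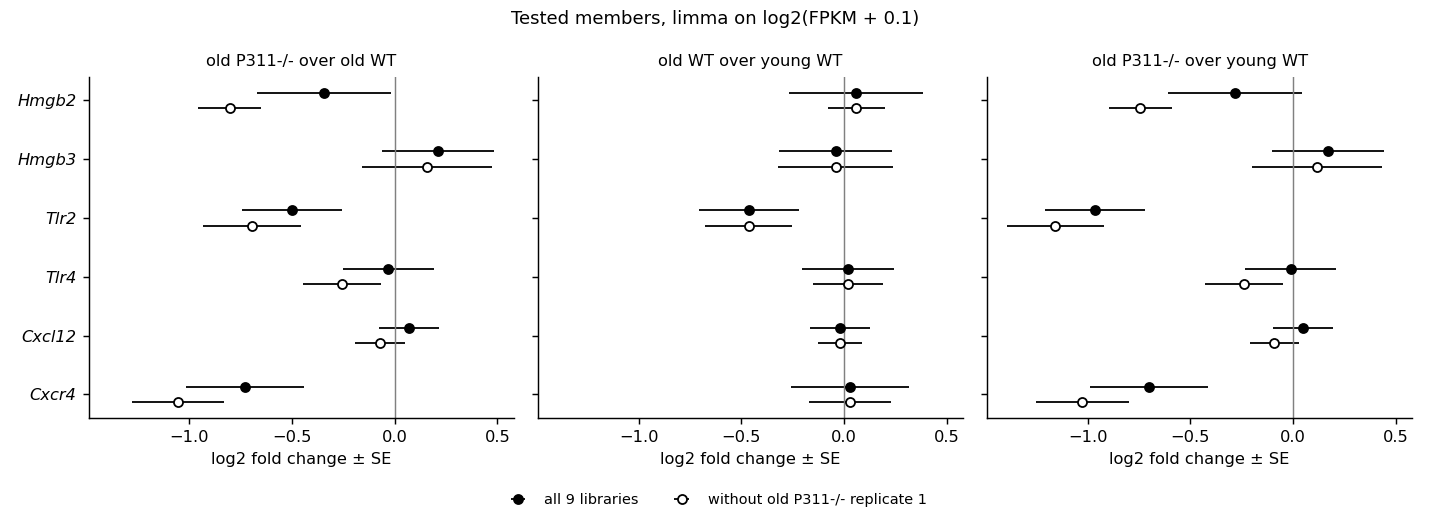
Log2 fold changes (limma, ± SE) of the 6 tested members in the 3 comparisons, with all 9 libraries (filled) and without P311-/- replicate 1 (open). In both comparisons of the P311-/- group, Hmgb2, Cxcr4, Tlr2 and Tlr4 lie further below 0 without that library (Hmgb2 over old WT -0.80 in place of -0.34), and old over young WT keeps its estimates.

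Among the receptors, Tlr2 had the order old P311-/- below old WT below young WT. Tlr2, which senses bacterial lipoproteins together with Tlr1 or Tlr6, was at 4.64, 2.45 and 3.83 FPKM in P311-/-, 5.34, 4.34 and 5.48 FPKM in old WT, and 5.30, 7.92 and 8.04 FPKM in young WT. The P311-/- libraries lay below all young WT libraries, as 23.5% of all genes tested did in 1 direction or the other, and neighbouring groups in this order overlapped. The log2 fold change was -0.96 for P311-/- over young WT (SE 0.24, adjusted p = 0.104 by limma), -0.50 for P311-/- over old WT (SE 0.24, adjusted p = 0.337) and -0.46 for old over young WT (SE 0.24, adjusted p = 0.255). Without P311-/- replicate 1, Tlr2 passed between P311-/- and young WT (-1.16, adjusted p = 0.0125) and not between P311-/- and old WT (-0.70, adjusted p = 0.0836).

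Tlr4, the receptor of bacterial lipopolysaccharide and of disulphide HMGB1, had nearly equal means of 2.70 ± 0.826 FPKM in P311-/-, 2.70 ± 0.288 FPKM in old WT and 2.68 ± 0.528 FPKM in young WT (SD, n = 3 each). The single libraries were at 3.64, 2.08 and 2.39 FPKM in P311-/-, 2.99, 2.41 and 2.70 FPKM in old WT, and 2.15, 2.69 and 3.21 FPKM in young WT. The interval of the log2 difference between P311-/- and old WT was -0.53 to 0.47 (adjusted p = 0.957 by limma), which leaves room for a difference of that size in either direction. Ly96, which encodes the MD-2 partner that TLR4 needs to bind its ligands, spread more, with 4.02, 0.877 and 1.10 FPKM in P311-/-, 3.48, 5.50 and 4.38 FPKM in old WT, and 1.16, 1.58 and 2.92 FPKM in young WT. Its log2 fold change between P311-/- and old WT was -1.40 (adjusted p = 0.269 by limma), and -2.05 without P311-/- replicate 1 (adjusted p = 0.0113).

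Ager, whose product RAGE is most abundant in lung, was close to undetected in this muscle. It had 24, 0 and 0 reads in P311-/-, 13, 4 and 8 reads in old WT, and 7, 10 and 14 reads in young WT, which gives 0.393, 0 and 0 FPKM in P311-/-, 0.280, 0.113 and 0.155 FPKM in old WT, and 0.216, 0.279 and 0.331 FPKM in young WT. A count of 0 allows up to 0.0784 FPKM in P311-/- replicate 2 and up to 0.0464 FPKM in replicate 3, taking 3 reads as the limit and counting error only. The highest and the lowest libraries both belonged to the P311-/- group, and the 3 groups overlapped. For 8 genes used as markers of lung cells, whose tissue is rich in Ager, the sum was 70.01 to 81.3 FPKM in P311-/-. It was 89.2 to 96.7 FPKM in old WT and 89.9 to 94.0 FPKM in young WT. Nearly all of the sum came from Cav1, Clic5 and Pdpn, so it speaks for those genes and not for the list. The surfactant gene Sftpc was at 0 in every P311-/- and old WT library. Differences of Ager between groups were not detectable at this depth.

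Cxcl12, the chemokine that stromal cells make to hold and draw CXCR4-bearing cells, had the highest mean FPKM of the 8 members over the 9 libraries, 14.4, before Hmgb1 at 10.9 and Cxcr4 at 7.92. It was at 17.8, 12.4 and 14.3 FPKM in P311-/-, 14.2, 12.7 and 15.2 FPKM in old WT, and 14.9, 14.0 and 13.7 FPKM in young WT. The groups overlapped, and the log2 difference between P311-/- and old WT was 0.07 with an interval of -0.26 to 0.39 (adjusted p = 0.835 by limma), the narrowest interval among the tested members. Between old and young WT it was -0.02 with an interval of -0.34 to 0.31 (adjusted p = 0.949).

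Cxcr4, the receptor of CXCL12 on leukocytes and muscle progenitors, was at 8.51, 3.40 and 5.38 FPKM in P311-/-, 8.59, 7.48 and 11.4 FPKM in old WT, and 8.73, 9.86 and 7.98 FPKM in young WT. Replicates 2 and 3 of P311-/- were below every WT library and replicate 1 was among them. The log2 fold change was -0.73 for P311-/- over old WT (SE 0.29, 95% confidence interval -1.38 to -0.08, adjusted p = 0.281 by limma) and -0.70 for P311-/- over young WT (SE 0.29, adjusted p = 0.205). Without P311-/- replicate 1 it passed in both, at -1.05 (SE 0.22, adjusted p = 0.0208) and -1.03 (adjusted p = 0.0160). Between old and young WT the estimate was 0.03 with an interval of -0.62 to 0.68.

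The summed FPKM of 12 macrophage markers was 1677, 721 and 990 in P311-/-, 1834, 1249 and 1513 in old WT, and 1543, 1819 and 2378 in young WT. Across the P311-/- libraries it had the same order as Cxcr4 and Tlr2. In WT muscle the order of Cxcr4 differed: young WT replicate 3 had the highest sum and the lowest Cxcr4 of its group. In old WT, replicate 3 had the highest Cxcr4 and Tlr2 but not the highest sum. In young WT the order of Tlr2 was that of the sum. None of the 12 markers was at 0 in every library. Between P311-/- and old WT 11 of the 12 had a log2 fold change below 0, beside 50.4% of all genes tested. None of them was called by limma (1 at an unadjusted p under 0.05, lower, beside 16.1% of all genes). Without P311-/- replicate 1, 2 of the 12 were called lower against old WT and 8 against young WT. That fit called 13.2% and 19.6% of all genes tested in these comparisons. Neutrophil markers summed to 10.1 to 19.4 FPKM in P311-/-, 10.6 to 31.0 FPKM in old WT and 8.95 to 23.2 FPKM in young WT, and lymphoid markers to 6.45 to 23.7 FPKM in P311-/-, 15.4 to 24.9 FPKM in old WT and 13.9 to 15.4 FPKM in young WT. The part of leukocyte content in the differences of Cxcr4 and Tlr2 was not tested. Satellite cell markers summed to 42.2 to 49.2 FPKM in P311-/-, 45.8 to 48.5 in old WT and 52.9 to 64.2 in young WT, and endothelial markers to 72.5 to 87.8 FPKM in P311-/-, 74.2 to 103 in old WT and 76.6 to 81.6 in young WT. Fibro-adipogenic progenitor markers, from cells that make Cxcl12, summed to 1192 to 1633 FPKM in P311-/-, 1363 to 1840 in old WT and 1994 to 2050 in young WT. Between P311-/- and old WT limma and voom called none of these neutrophil, lymphoid, satellite cell, endothelial and progenitor markers. At an unadjusted p under 0.05, limma had 0 to 2 higher and 0 to 3 lower per list, beside 16.1% of all genes tested. Leaving out P311-/- replicate 1, it called 0 neutrophil markers, 1 lymphoid marker (lower), 2 satellite cell markers (1 higher and 1 lower), 4 endothelial markers (2 higher and 2 lower) and 2 progenitor markers (both lower). The share called over all genes tested was then 13.2%.

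**Figure D5:**
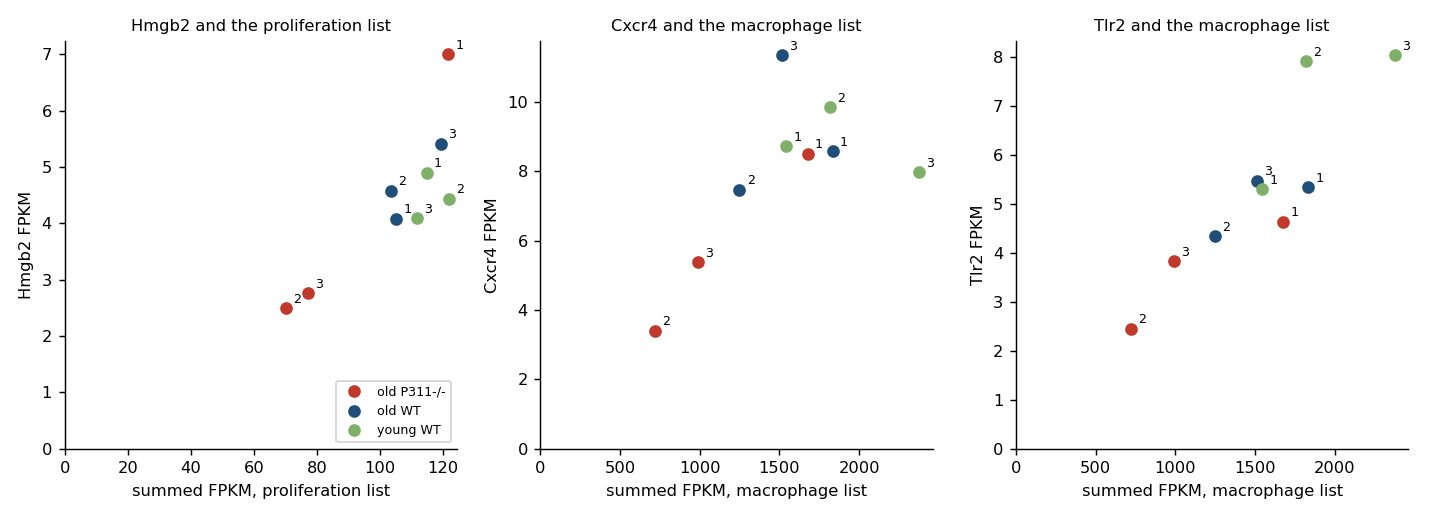
FPKM of Hmgb2 against the summed FPKM of 20 proliferation genes, and of Cxcr4 and Tlr2 against that of 12 macrophage markers, with 1 point per library, numbers marking replicates, and colours marking old P311-/- (red), old WT (blue) and young WT (green). P311-/- replicates 2 and 3 have the lowest value on both axes in each panel (proliferation sums 70.04 and 77.2, macrophage sums 721 and 990), and replicate 1 of that group lies among the WT libraries for Cxcr4 and in the proliferation and macrophage sums.

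Around the HMGB proteins, 15 of 20 other HMG-box and HMG nuclear protein genes were tested. Genes named from this list and the lists below, and Ly96 above, were picked for the smallest p in their list or because they were called. Between P311-/- and old WT limma called none of them (3 higher and 2 lower at an unadjusted p under 0.05, beside 16.1% of all genes), with a median log2 fold change of -0.01. With P311-/- replicate 1 left out, Hmgn3, a nucleosome-binding protein, was called lower (-1.37, adjusted p = 0.00546 by limma) and Hmgxb3 higher (0.52, adjusted p = 0.0266). That fit called 13.2% of all genes tested. Between old and young WT 2 of the 15 were called, both higher in old muscle, beside 5.4% of all genes tested. Hmgn5, of the same family as Hmgn3, was at 8.46, 9.86 and 8.39 FPKM in old WT, against 4.51, 3.71 and 3.95 FPKM in young WT (log2 fold change 1.12, SE 0.21, adjusted p = 0.0308 by limma), and at 4.88, 9.17 and 6.26 FPKM in P311-/-. Tfam, the HMG-box protein that packs mitochondrial DNA, was at 13.6, 14.7 and 13.6 FPKM in old WT, against 10.8, 9.84 and 9.21 FPKM in young WT (0.49, SE 0.11, adjusted p = 0.0399), and at 11.9, 10.7 and 11.8 FPKM in P311-/-. Both had, like Hmgb1, the highest group mean in old WT, and between P311-/- and old WT neither passed (adjusted p = 0.331 for Hmgn5 and 0.276 for Tfam). Neither call held in every fit that left out 1 library. Hmgn5 missed the threshold without old WT replicate 2 or 3 (adjusted p = 0.120 and 0.0994 by limma) or young WT replicate 1, 2 or 3 (0.0600, 0.106 and 0.112). It also missed it with no filter on low values (0.0752) and with replicate number as a block in the fit (0.0686). Tfam missed it without P311-/- replicate 3 (0.0563), any old WT replicate (0.0626 to 0.144) or any young WT replicate (0.0626 to 0.139). It also missed it with no filter (0.0883), with the replicate block (0.0861) and with total-count scaling of the reads (0.147).

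Genes that set the redox form, acetylation and export of HMGB1 gave a further 16 of 17 tested, with 0 called in each comparison. Between P311-/- and old WT 3 were higher and 5 lower at an unadjusted p under 0.05, beside 16.1% of all genes. Prdx1, a peroxiredoxin that takes part in forming the disulphide bond of HMGB1, was at 78.1, 57.5 and 54.8 FPKM in P311-/-, 98.3, 114 and 102 FPKM in old WT, and 65.3, 70.8 and 85.9 FPKM in young WT. Its P311-/- libraries all lay below the old WT ones, and 18% of all genes tested had no overlap between these groups. The log2 fold change of Prdx1 was -0.74 (SE 0.17, adjusted p = 0.237 by limma). Prdx1 passed without P311-/- replicate 1 (-0.90, adjusted p = 0.00817). Txn1, the thioredoxin that reduces such bonds, had 62.0, 50.4 and 43.1 FPKM in P311-/-, against 66.9, 72.4 and 63.8 FPKM in old WT (-0.40, adjusted p = 0.269). It too passed without P311-/- replicate 1 (-0.54, adjusted p = 0.0247). In all, 2 genes of this list were then called higher, among them the histone deacetylase gene Hdac4 (0.87, adjusted p = 0.0171), and 3 lower. The same fit called 13.2% of all genes tested. The gene of the acetyltransferase p300, Ep300, averaged 3.83 ± 0.260 FPKM in P311-/-, 2.86 ± 0.436 FPKM in old WT and 3.40 ± 0.250 FPKM in young WT (SD, n = 3 each), with an adjusted p of 0.260 between P311-/- and old WT by limma.

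Of 13 other receptors and partners of HMGB1 that were tested, 10 had estimates below 0 between old and young WT, beside 49.6% of all genes. Of the 13, limma called 1, beside 5.4% of all genes. Lrp1, a scavenger and signalling receptor, was at 12.2, 10.05 and 9.35 FPKM in old WT, against 18.1, 22.7 and 23.5 FPKM in young WT (log2 fold change -1.01, SE 0.18, adjusted p = 0.0307 by limma), and at 15.7, 10.6 and 14.8 FPKM in P311-/-. That call was lost without old WT replicate 2 or 3 (adjusted p = 0.118 and 0.0994) or young WT replicate 1, 2 or 3 (0.0571, 0.106 and 0.112). It was lost too with no filter on low values (0.0735) and with the replicate block (0.0691). The median of the 13 was -0.52 between old and young WT, beside 0.00 over all genes tested, and -0.08 between P311-/- and old WT, where none was called (0 higher and 1 lower at an unadjusted p under 0.05) and Ly96 was called without P311-/- replicate 1, as given above. Of 9 other Toll-like receptors tested, Tlr5 was called lower in old than in young WT (-1.49, SE 0.35, adjusted p = 0.0438). That call was lost without P311-/- replicate 3 (0.0596), old WT replicate 2 or 3 (0.144 and 0.122) or young WT replicate 1, 2 or 3 (0.0571, 0.139 and 0.144). It was also lost with total-count scaling (0.0524), with the replicate block (0.0864) and with no filter (0.101). Between P311-/- and old WT 7 of the 9 had estimates below 0, beside 50.4% of all genes. None of the 9 was called (0 higher and 2 lower at an unadjusted p under 0.05, beside 16.1% of all genes). Tlr1, the partner of Tlr2, was at 2.78, 0.869 and 1.15 FPKM in P311-/-, 3.10, 3.52 and 3.14 FPKM in old WT, and 2.78, 3.004 and 5.17 FPKM in young WT (-1.14 for P311-/- over old WT, adjusted p = 0.258). It passed without P311-/- replicate 1 (-1.61, adjusted p = 0.00914), as did Tlr7, a receptor of single-stranded RNA (-1.12, adjusted p = 0.00625). These were the 2 called of the 9, beside 13.2% of all genes tested in that fit.

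Downstream of these receptors, none of 18 adaptors and kinases and none of 13 NF-kB target genes was called by limma between P311-/- and old WT. At an unadjusted p under 0.05 there were 0 of the 18 and 1 of the 13, beside 16.1% of all genes. Il1b, the gene of the cytokine interleukin-1 beta, was that 1 gene, at 1.085, 0.0880 and 0 FPKM in P311-/-, 2.25, 1.46 and 1.41 FPKM in old WT, and 1.73, 3.80 and 3.80 FPKM in young WT. The P311-/- libraries were all below the WT libraries. Of all genes tested, 18% had no overlap between P311-/- and old WT, and 23.5% had none between P311-/- and young WT. The log2 fold change of Il1b was -2.65 over old WT (SE 0.76, adjusted p = 0.253 by limma). At 0.0880 and 0 FPKM its size depends on the 0.1 added before the logarithm. Il1b passed without P311-/- replicate 1 (-3.69, adjusted p = 0.00328). Then 3 of the 13 NF-kB targets were called lower, among them the chemokine gene Ccl2 (-1.79, adjusted p = 0.0498), and 0 of the 18 adaptors and kinases. The same fit called 13.2% of all genes tested. Nfkbia, the inhibitor that NF-kB induces, averaged 18.5 ± 4.41 FPKM in P311-/-, 15.02 ± 0.948 FPKM in old WT and 19.6 ± 2.88 FPKM in young WT (SD, n = 3 each; adjusted p = 0.473 between P311-/- and old WT by limma). Of 14 other genes of the CXCL12 and CXCR4 axis, none was called (1 lower at an unadjusted p under 0.05, beside 16.1% of all genes), with a median of 0.03. That gene was Rgs2, a brake on G protein signalling, at 5.76, 2.58 and 4.15 FPKM in P311-/-, against 7.27, 6.96 and 5.83 FPKM in old WT (-0.74, SE 0.25, adjusted p = 0.266). Leaving out P311-/- replicate 1, Rgs2 (-1.002, adjusted p = 0.0205) and Gnai3, a G protein subunit gene (-0.47, adjusted p = 0.0280), were called lower, beside 13.2% of all genes called. Of the pathway lists between P311-/- and old WT, voom called no member either with all 9 libraries. Between old and young WT, limma called 0 of the 14 other genes of the CXCL12 and CXCR4 axis, beside 5.4% of all genes tested. For this list voom called 2, and its share over all genes is not given here. All 6 tested S100 genes, listed as other ligands of RAGE, had estimates below 0 between P311-/- and old WT, beside 50.4% of all genes. Their median was -0.47, and none was called with or without P311-/- replicate 1. With all 9 libraries 0 were higher and 2 lower at an unadjusted p under 0.05, beside 16.1% of all genes. S100a1, the S100 protein of muscle fibres, was at 121, 143 and 106 FPKM in P311-/-, 147, 222 and 182 FPKM in old WT, and 135, 106 and 118 FPKM in young WT (-0.57, SE 0.18, adjusted p = 0.258 for P311-/- over old WT).

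The genes whose pattern was most like that of Hmgb1 over the 9 libraries, by Pearson's r of log2(FPKM + 0.1) among 12492 tested genes, were Klra7 (r = 0.97), Mtif2 (0.96), Phf6 (0.94), Rpl7-ps7 (0.94) and Abcg2 (0.94). The 9 libraries are the same ones for every gene, so these values describe the 3 groups as much as single libraries. Klra7, a natural killer cell receptor gene with close copies among its neighbours, was at 0.665, 0.531 and 0.497 FPKM in P311-/-, 2.15, 2.91 and 3.27 FPKM in old WT, and 1.36, 0.993 and 1.32 FPKM in young WT. Mtif2, a mitochondrial translation initiation factor, was at 7.87, 8.60 and 7.99 FPKM in P311-/-, 11.1, 10.7 and 11.03 FPKM in old WT, and 10.04, 9.67 and 9.05 FPKM in young WT. The most opposed were Qrich1, Abhd15 and Proser3 (r = -0.93 each), and Qrich1 was at 6.16 to 6.36 FPKM in P311-/-, 5.45 to 5.83 FPKM in old WT and 5.98 to 6.18 FPKM in young WT.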

How the data were processed

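Per the submitters' processing notes, reads were handled with HISAT2 2.2.1, featureCounts 2.1.1 and DESeq2 1.42.0, and the build mm39 is named. Their options are not stated. Gene positions in the deposited table equal GRCm38 (GENCODE M21) for 98.3% of 54409 shared identifiers and for all 8 members, so GRCm38 is used. The deposited values are FPKM per gene and library, scaled by the authors. Deposited gene lengths gave whole reads for 100% of values (tolerance 0.001), and the authors' library sizes equalled median-of-ratios factors times 1 constant.

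Genes with at least 0.5 FPKM and at least 10 reads in at least 3 libraries were tested (14233 genes). limma 3.58.1 in R 4.3.3, with trend and robust moderation, was fitted to log2(FPKM + 0.1) over all 9 libraries, with Benjamini-Hochberg adjustment over all tested genes and calls at 0.05. That scale understates changes of low genes. The method was tested on simulated data. Copies were found with blastn 2.17.0 at 90% identity and 80% of the coding sequence. Genes named from a list were up to 3 with the smallest p between P311-/- and old WT, up to 3 between old and young WT, and every gene called. They are the extremes of their list. Members, lists and rules were chosen with earlier results of these data known. Leaving out P311-/- replicate 1 for the lists, and adding the copies' reads, were chosen after seeing the data. Alternatives were other pseudocounts, filters, scalings, voom, library weights, fewer libraries and a replicate block.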

Additional observations from a re-analysis of the deposited data

How the results depend on the processing

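Hmgb1 was chosen for its pattern, and its 3 groups did not overlap. Leaving out libraries, library weights or other pseudocounts therefore could not change the direction of its difference. Hmgb1 kept the sign of its log2 difference in all 3 comparisons under every alternative run. It ranged from -1.55 to -0.67 for P311-/- minus old WT, from 0.52 to 0.83 for old minus young WT and from -0.87 to -0.16 for P311-/- minus young WT. The values nearest 0 came from adding the reads of the near-identical copies (-0.67, 0.52 and -0.16), and total-count scaling moved the last to -0.87. Of 324 values of the 6 tested members under alternatives, 287 kept direction and side of the threshold, 28 changed sign and 9 passed where the reported fit did not. With library quality weights Hmgb2 (-0.67) and Cxcr4 (-0.81) passed for P311-/- over old WT, and Cxcr4 (-0.78) and Tlr2 (-0.97) for P311-/- over young WT. The weights were estimated from these same data and were 0.27, 0.69 and 2.54 in P311-/- replicates 1 to 3. The weighted P311-/- values thus rest mostly on replicate 3, and this fit is not independent of the one without replicate 1.

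The number of genes called moved far more. For P311-/- against old WT it was 2720 with library weights, 6 with the 6 libraries alone, 4 with the replicate block and 4 to 1875 when 1 library was left out. For old against young WT it was 5 with no filter, 346 with total-count scaling, 2290 with weights, 1653 with the 6 libraries alone, 0 with the replicate block and 0 to 1755 leaving 1 library out. For P311-/- against young WT it was 87 with a pseudocount of 1, 23 with no filter, 34 with total-count scaling, 139 with voom, 3173 with weights, 12 with the 6 libraries alone, 5 with the replicate block and 4 to 2785 leaving 1 library out. The cause was not tested. Replicate numbers did not pair the libraries (correlations of same-numbered libraries -0.10 to 0.15, and not every library correlated best with its own number). Of the genes called between old and young WT, 62.8% were higher in old muscle, against 27.7% with total-count scaling.

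Sign changes were those of members near 0. Total-count scaling, which shifts the median of all genes by -0.13 between old and young WT and by -0.14 between P311-/- and young WT, gave -0.071 for Hmgb2, -0.10 for Cxcr4 and -0.11 for Tlr4 between old and young WT, and -0.095 for Cxcl12 between P311-/- and young WT. With weights Tlr4 was at -0.011 between old and young WT and Cxcl12 at -0.00048 between P311-/- and young WT. Leaving out 1 library in turn gave -0.072 to 0.19 for Cxcl12 and -0.26 to 0.13 for Tlr4 between P311-/- and old WT. Between old and young WT it gave -0.046 to 0.15 for Hmgb2, -0.31 to 0.26 for Hmgb3, -0.080 to 0.053 for Cxcl12, -0.14 to 0.16 for Cxcr4 and -0.12 to 0.15 for Tlr4. Between P311-/- and young WT it gave -0.097 to 0.48 for Hmgb3, -0.091 to 0.17 for Cxcl12 and -0.24 to 0.15 for Tlr4.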
